A study of Mus musculus with 4 samples.

Results

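Semaphorins and ephrins are guidance ligands, and plexins, neuropilins and Eph receptors are the cell-surface proteins that read them. Their genes were compared between the atrioventricular (AV) junction and the ventricular region of the mouse heart, where AV cushions form on one side and chamber muscle grows on the other. A gene belonged to the set if a probe set with 1 annotated symbol matched Sema with a digit and a letter, Plxn with a letter, Nrp1, Nrp2, Epha or Ephb with digits, or Efna or Efnb with a digit. This gave 45 genes on 81 probe sets, of 12393 genes on the array with such a symbol, and where a gene had several, the one brightest on average over the 4 arrays stands for it. The set held 17 semaphorins, 2 neuropilins, 7 plexins, 11 Eph receptors and 8 ephrins.

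Both groups were wild-type C57BL/6 hearts of embryonic days 10.5 to 11.0. The AV junction group was 230 ng of total RNA from the microdissected junctions of about 80 hearts, and the ventricular group was 250 ng from the ventricles of about 80. Amplified RNA of each region was read on 2 Affymetrix MOE430A arrays, labelled 1a and 1b. The sources used here do not say that a and b were separate pools, so the p-values below measure only the spread between arrays, which may be technical. The dissected junction holds muscle, cushion mesenchyme, endocardium and blood together. In such bulk tissue, fewer cells of a type and less RNA per cell cannot be told apart. Values are scaled MAS5 intensities (MAS5 is Affymetrix's summary of a probe set, here with every array set to a trimmed mean of 500), and a positive log2 fold means higher in the AV junction.

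Semaphorins signal mainly by repelling or attracting moving cells and axons: secreted class 3 members bind a neuropilin held to a plexin, while membrane-bound members bind plexins directly, and the plexin then acts on small GTPases and the cytoskeleton. Ephrins are anchored to the cell that makes them, A class by a lipid and B class by a transmembrane segment, and Eph receptors are tyrosine kinases on the neighbouring cell, so signals run both ways where cells touch. In mouse hearts these systems are known for bringing neural crest into the outflow tract, for vessel patterning, for trabeculation and, through Epha3, for fusion of the AV cushions.

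Most of these genes were dim. Of the 45, 25 had a mean of at least 100 over the 4 arrays and were tested, and their means had a median of 203, against 422 over the 8409 genes tested in all. Because that floor was set on the mean of both regions, 4 tested genes (Sema6d, Sema7a, Plxnd1 and Epha6) averaged under 100 on the AV arrays. They reached the floor through their ventricular readings, so a lower AV mean was fixed by their inclusion. As a mark of background, the bacterial (Bacillus subtilis) control probe set with the strongest reading gave 58.6 and 52.6 for the AV junction, against 97.9 and 104 for the ventricular region. Of the 25 tested genes 24 lay above it on all 4 arrays, and Sema7a fell below it on AV array 1b. Of the 20 dimmer genes 8 lay at or below it on every array.

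**Figure D1:**
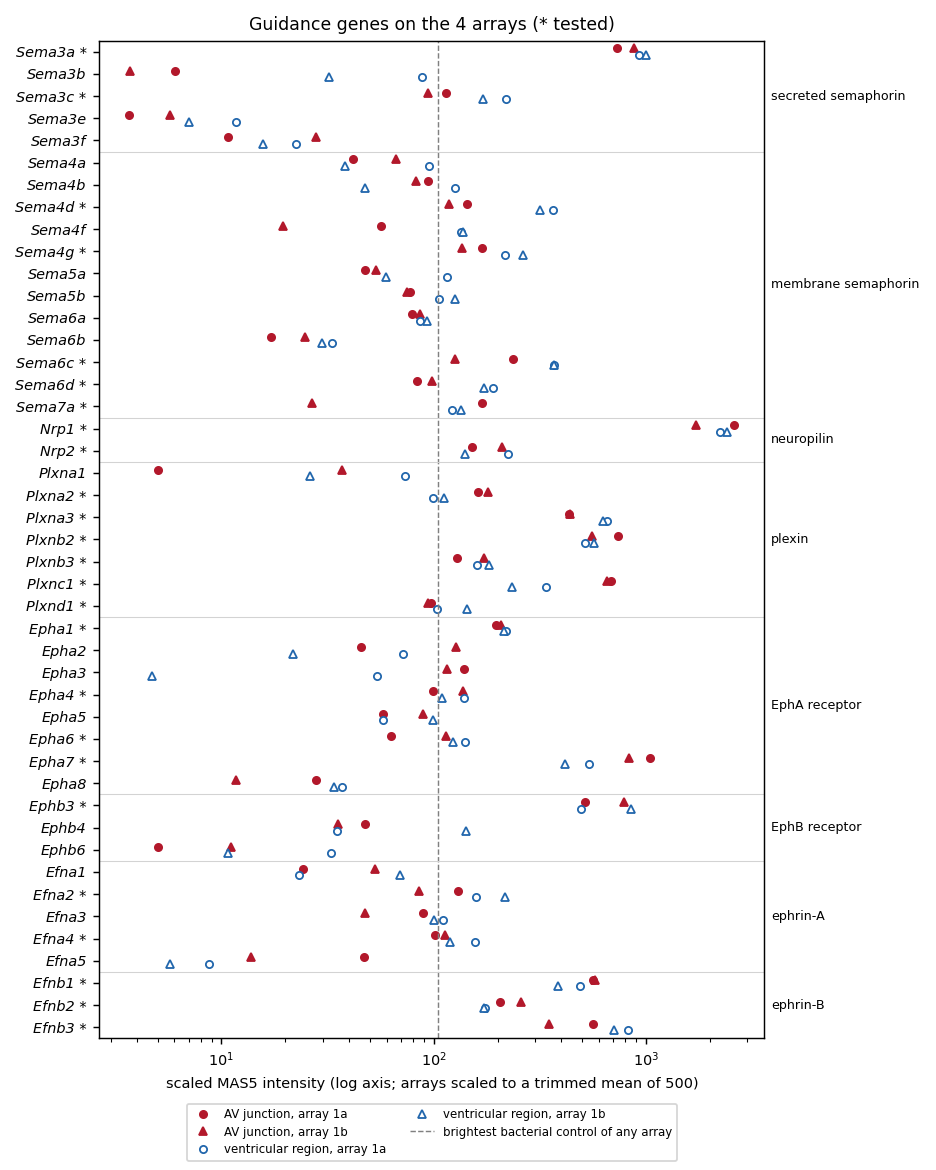
Scaled MAS5 intensity (log axis) of all 45 genes on each array, grouped by role, with AV junction arrays as filled red symbols drawn just above the open blue symbols of the ventricular arrays and the brightest bacterial control of any array as a dashed line. The AV symbols of Plxnc1 and Epha7 lie to the right of the ventricular ones, and those of Sema4d, Sema6c, Sema6d and Plxna3 to the left.

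In all, 4 genes passed limma's test (a moderated linear model, threshold 0.05 after Benjamini-Hochberg adjustment): Plxnc1 and Epha7 were higher in the AV junction, and Sema4d and Plxna3 were lower. That is 8.0% of the tested genes in each direction, against 8.47% higher and 6.54% lower over all genes tested, or 15% in either direction, so the share called is close to the background. At an unadjusted p under 0.05, 2 of the 25 were higher and 7 lower, against 15.9% higher and 17.1% lower over all genes. The arrays of the regions did not overlap for 18 of the 25 genes (72.0%), against 62.4% of all genes. The log2 fold was negative for 19 of the 25 (76.0%), against 55.2% of all genes, with a median of −0.25 against −0.06. The 19 include Sema6d, Sema7a, Plxnd1 and Epha6, which reached the floor only through the ventricular arrays. Dim genes leaned the same way throughout the array: 16 of the 25 had means under 313, and with all genes sorted into 5 equal bins of brightness, the 2 dimmest bins, which cover that range, had median log2 folds of −0.22 and −0.15, with 3.27% and 8.03% called. With median scaling of the arrays, which moved the median of all genes by 0.16 on the log2 scale, 13 of the 25 were negative, and the share of all calls that were higher was 80.9% in place of 56.4%.

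**Figure D2:**
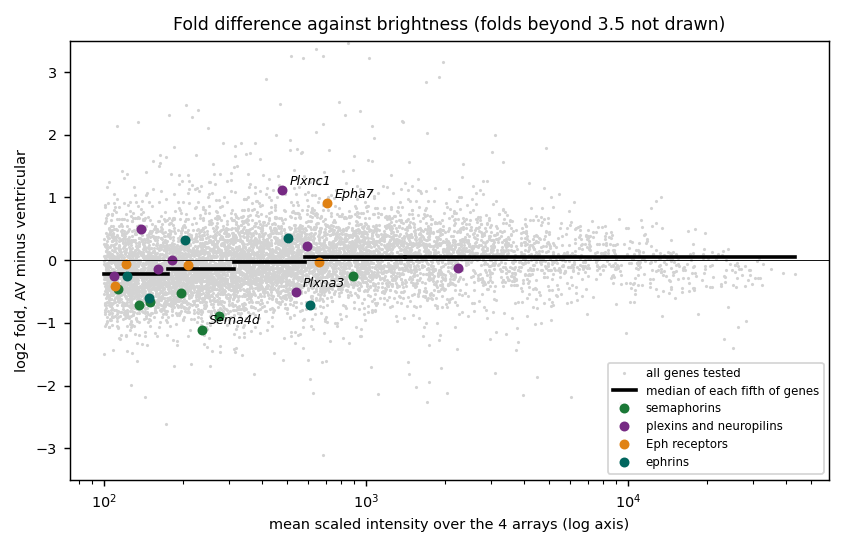
Log2 fold (AV junction minus ventricular region) against mean scaled intensity (log axis) for all 8409 genes tested in grey, with the median of each of 5 equal brightness bins as a black bar and folds beyond 3.5 not drawn, and the 25 guidance genes coloured by class. The semaphorins lie at or below zero, while Plxnc1 (1.12) and Epha7 (0.91) lie above.

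Among the semaphorins, all 7 tested genes had negative log2 folds, and 1 of them, Sema4d, passed. Sema6d and Sema7a reached the floor only through the ventricular arrays, so a lower AV mean was fixed by that filter. Limma's test called 0 of the 7 higher, and at an unadjusted p under 0.05 the count was 0 higher and 5 lower of 7, against 15.9% and 17.1% of all genes. Sema6d was among those 5. Sema4d, a membrane-bound ligand of plexin-B1 that is best known from lymphocytes and nerve, read 144 and 119 on the AV junction arrays, against 366 and 315 on the ventricular arrays. Both AV arrays lay far below both ventricular arrays. Its log2 fold was −1.11 (SE 0.19), or 2.16-fold higher in the ventricular region, with a limma adjusted p of 0.0119. Its other probe sets lay at or below the bacterial control on every array and were not tested. Without ventricular array 1a the adjusted p was 0.0783, the only one of the alternatives run in which Sema4d did not pass.

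The same sign was seen in the Sema6 pair, transmembrane ligands of A-class plexins, although neither passed. For Sema6d a lower AV mean was fixed by the floor, so its sign adds nothing to that of Sema4d. Sema6c read 237 and 126 on the AV junction arrays, against 367 and 367 on the ventricular arrays. The AV arrays differed from each other but both lay below the ventricular pair, and the log2 fold was −0.89 with a 95% interval of −1.48 to −0.31 (adjusted p = 0.0543). With 1 array left out the log2 fold ran from −1.25, where it passed without AV array 1a (adjusted p = 0.0223), to −0.54 without AV array 1b (adjusted p = 0.149), and it did not pass without either ventricular array. Sema6d, known in the chick embryo for acting through plexin-A1 on heart looping and on the ventricular wall, read 83.8 and 98.2 in the AV junction, against 191 and 172 in the ventricular region (log2 fold −0.71, interval −1.25 to −0.18, adjusted p = 0.0795). Its arrays did not overlap.

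Secreted semaphorins were represented by Sema3a and Sema3c. Sema3c, which in the mouse guides cardiac neural crest into the outflow tract, read 115 and 93.5 on the AV arrays, against 219 and 170 on the ventricular arrays. Its groups did not overlap, but the log2 fold of −0.66 did not pass (interval −1.21 to −0.12, adjusted p = 0.102). Sema3a, the classic axon repellent of this family, read 735 and 878 in the AV junction and 931 and 1003 in the ventricular region, a log2 fold of −0.25 (interval −0.56 to 0.06, adjusted p = 0.233). Sema4g (log2 fold −0.52, adjusted p = 0.138) did not pass either. Sema7a, the lipid-anchored ligand of plexin-C1, read 169 and 26.8 on the AV arrays, against 122 and 134 on the ventricular arrays, so that its AV arrays lay on both sides of the ventricular ones. Its log2 fold was −0.45 with an interval of −1.54 to 0.63, and without AV array 1b it was 0.30.

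The promoters of 3 of these ligands are shown because their folds had the same sign and their RefSeq entries (GRCm38.p6) reach outside the annotated gene. None of the 3 genes passed, and for Sema6d a lower AV mean was fixed by the floor. Each promoter is read 5′ to 3′ on the gene's strand and ends at the base before the gene's outermost start. They are Sema3c (chr5:17574566-17574815, plus strand), Sema6c (chr3:95160170-95160419, plus strand) and Sema6d (chr2:124089719-124089942, plus strand), with capitals marking an E-box of the form CANNTG or the GC-rich Smad site GGCGCC.
Sema3c: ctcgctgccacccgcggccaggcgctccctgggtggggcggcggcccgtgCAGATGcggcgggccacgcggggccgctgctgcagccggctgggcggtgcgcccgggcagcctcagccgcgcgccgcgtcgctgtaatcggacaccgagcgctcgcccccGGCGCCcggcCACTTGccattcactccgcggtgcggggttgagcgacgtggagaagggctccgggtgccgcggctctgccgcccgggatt
Sema6c: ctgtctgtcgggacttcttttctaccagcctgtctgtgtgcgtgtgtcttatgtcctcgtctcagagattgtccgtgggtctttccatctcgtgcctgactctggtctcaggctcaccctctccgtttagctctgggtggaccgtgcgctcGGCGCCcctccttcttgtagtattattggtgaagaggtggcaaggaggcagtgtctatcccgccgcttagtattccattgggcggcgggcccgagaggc
Sema6d: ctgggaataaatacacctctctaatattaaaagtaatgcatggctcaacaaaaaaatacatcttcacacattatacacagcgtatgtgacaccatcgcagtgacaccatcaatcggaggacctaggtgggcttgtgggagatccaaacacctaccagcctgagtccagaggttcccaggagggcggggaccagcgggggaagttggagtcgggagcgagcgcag

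The Smad site lay 90 bases before the start of Sema3c and 99 before that of Sema6c, and Sema3c had E-boxes 200 and 80 bases before its start. Sema6d had the palindromic E-box CACGTG 23 bases before the start that its RefSeq entry uses, within the annotated gene and so outside the printed bases. Promoters of 40 of the 45 genes were in the RefSeq table. Searched on both strands in the 250 bases before 1 start per gene, the Smad site occurred in 11 of 40 (27.5%), against 9.57% of 27025 promoters, with a median GC content of 64.8% against 52.0%. The E-box form occurred in 18 of the 40 (45.0%, against 66.1%), its palindrome in 2 (5.0%, against 6.04%), the T-box half-site TCACACC in 2 (5.0%, against 3.31%) and the GATA site AGATAA in 2 (5.0%, against 10.2%). Such matches describe letters in a window, and the palindrome is counted within the E-box form as well.

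The 10 semaphorins below the floor were Sema3b, Sema3e, Sema3f, Sema4a, Sema4b, Sema4f, Sema5a, Sema5b, Sema6a and Sema6b. Sema4f read 56.6 and 19.4 on the AV arrays, both below the bacterial control, against 135 and 138 on the ventricular arrays. The ventricular readings were 2.45-fold above the AV control. The ventricular arrays' own control was stronger, at 97.9 and 104, so that ratio is no lower bound on the difference in Sema4f. With no floor on intensity it had a log2 fold of −1.11 and did not pass (adjusted p = 0.113). Sema3e, a ligand that binds plexin-D1 without a neuropilin, read 3.69 and 5.7 in the AV junction and 11.7 and 7.04 in the ventricular region, all below the control. Its partner receptor Plxnd1 was tested and is given below.

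Neuropilins did not differ beyond the spread of their arrays. Nrp1, the co-receptor of class 3 semaphorins and of VEGF-A, read 2606 and 1716 on the AV junction arrays, against 2236 and 2402 on the ventricular arrays. The 2 ventricular readings lay between the 2 AV readings. The log2 fold was −0.13 with an interval of −0.55 to 0.30, and its other tested probe sets gave 0.01 and 0.29. Nrp2, the co-receptor of class 3 semaphorins such as Sema3f and of VEGF-C, had a log2 fold of −0.00 (interval −0.60 to 0.59). Differences inside these intervals were not detectable with 2 arrays per region.

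Plexins went both ways. Plxnc1, the receptor of Sema7a, read 683 and 657 on the AV junction arrays, against 338 and 234 on the ventricular arrays. The AV arrays lay close together and above both ventricular arrays. It was 2.17-fold higher in the AV junction (log2 fold 1.12, SE 0.18, limma adjusted p = 0.00955), and it passed in all 15 alternatives, with adjusted p-values of 0.00105 to 0.0443. A second tested probe set read 554 and 489 in the AV junction, against 240 and 291 in the ventricular region, and passed with a log2 fold of 0.86 (adjusted p = 0.0159). The remaining probe sets of Plxnc1 were below the floor, and on both the regions overlapped. They read 71.4 and 76.1 in the AV junction, against 80.1 and 75.1 in the ventricular region, and 56.3 and 52.3, against 17.4 and 59.7.

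Plxna3, an A-class plexin that works with neuropilin-2 in axon repulsion, read 432 and 438 in the AV junction, against 656 and 628 in the ventricular region. Both pairs were tight and did not overlap. The log2 fold was −0.51 (SE 0.13, adjusted p = 0.0424), or 1.43-fold higher in the ventricular region. Its call was narrow: the adjusted p was 0.105 to 0.163 with any 1 of the 4 arrays left out, at log2 folds of −0.54 to −0.48. It was 0.126 with median scaling, which gave a log2 fold of −0.35, 0.0724 with no floor and 0.0779 with eBayes without trend. The other probe set of Plxna3 was below the floor and leaned the other way. It read 41.6 and 100 on the AV arrays, against 25.1 and 50.3 on the ventricular arrays, with only AV array 1b above the bacterial control.

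The other 4 tested plexins did not pass. Plxna2, a receptor of class 3 and class 6 semaphorins, read 161 and 181 on the AV arrays, against 99.6 and 112 on the ventricular arrays, with a log2 fold of 0.50 (interval −0.02 to 1.03, adjusted p = 0.174). Its arrays did not overlap. Plxnb2 had a log2 fold of 0.22 (interval −0.16 to 0.61), Plxnb3, a receptor of Sema5a, −0.15 (−0.67 to 0.38) and Plxnd1, the endothelial plexin, −0.25 (−0.85 to 0.35). Plxna1, the receptor of Sema6d in the chick heart, lay below the bacterial control on all 4 arrays, with 5.03 and 36.9 in the AV junction and 73.4 and 26.2 in the ventricular region.

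**Figure D3:**
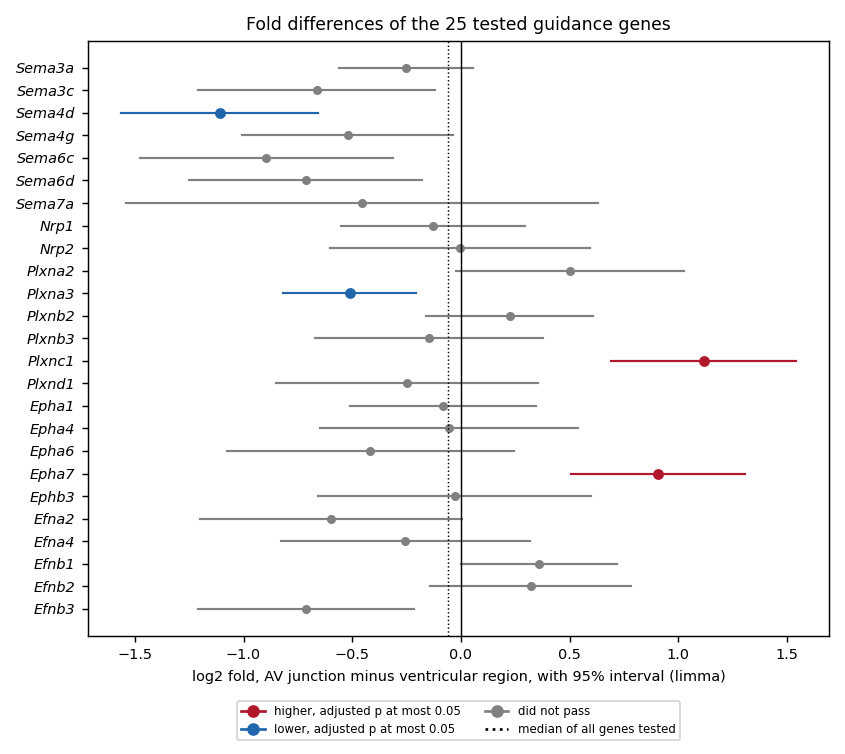
Log2 fold (AV junction minus ventricular region) with its 95% interval from limma for the 25 tested genes, in red where the gene passed as higher, blue where it passed as lower and grey otherwise; the dotted line is the median of all genes tested (−0.06). The log2 folds of the 7 semaphorins at the top all lie left of zero, although the intervals of Sema3a and Sema7a cross it. Plxnc1 and Epha7 have the only intervals that lie wholly right of zero.

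Among 5 tested Eph receptors, 1 was higher, 0 were lower and 4 did not pass. At an unadjusted p under 0.05 limma likewise gave 1 of 5 higher and 0 lower, against 15.9% and 17.1% of all genes. Epha7, an A-class receptor that binds lipid-anchored ephrins, read 1047 and 834 on the AV junction arrays, against 542 and 416 on the ventricular arrays. All AV readings exceeded all ventricular ones, by a log2 fold of 0.91 (SE 0.17, 1.88-fold, limma adjusted p = 0.0156). Its probe sets disagreed. A second read 176 and 151 in the AV junction, against 103 and 116 in the ventricular region (log2 fold 0.42, adjusted p = 0.246), while the third read 83.1 and 87.5 in the AV junction, against 192 and 178 in the ventricular region (log2 fold −0.80, adjusted p = 0.0577). Epha7 is known to be made in full-length and truncated forms, and which form each probe set reads was not analysed here. Averaged over the 3, the log2 fold was 0.18 and did not pass (adjusted p = 0.501). The single-probe-set call was also lost with 1 array left out, at an adjusted p of 0.0660 without AV array 1a and 0.0746 without ventricular array 1b, and at 0.0615 with eBayes without trend.

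The promoters of the 2 higher receptors are shown next to these values, for the bases of their RefSeq entries (GRCm38.p6) that precede the gene's outermost start: Plxnc1 (chr10:94945016-94945095, minus strand) and Epha7 (chr4:28812881-28813065, plus strand), 5′ to 3′ on the gene's strand. None of the 5 motifs searched lies in the printed bases, so no letter is in capitals.
Plxnc1: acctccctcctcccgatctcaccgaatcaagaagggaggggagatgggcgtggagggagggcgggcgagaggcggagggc
Epha7: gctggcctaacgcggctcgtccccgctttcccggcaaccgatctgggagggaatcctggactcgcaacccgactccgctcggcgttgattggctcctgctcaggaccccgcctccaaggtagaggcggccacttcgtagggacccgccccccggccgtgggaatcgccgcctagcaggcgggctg

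Over the 250 bases before their table starts, both were rich in G and C, at 68.8% for Plxnc1 and 69.2% for Epha7. The only match among the 5 motifs was an E-box (CAGTTG) 143 bases before the Plxnc1 start, within the annotated gene.

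**Figure D4:**
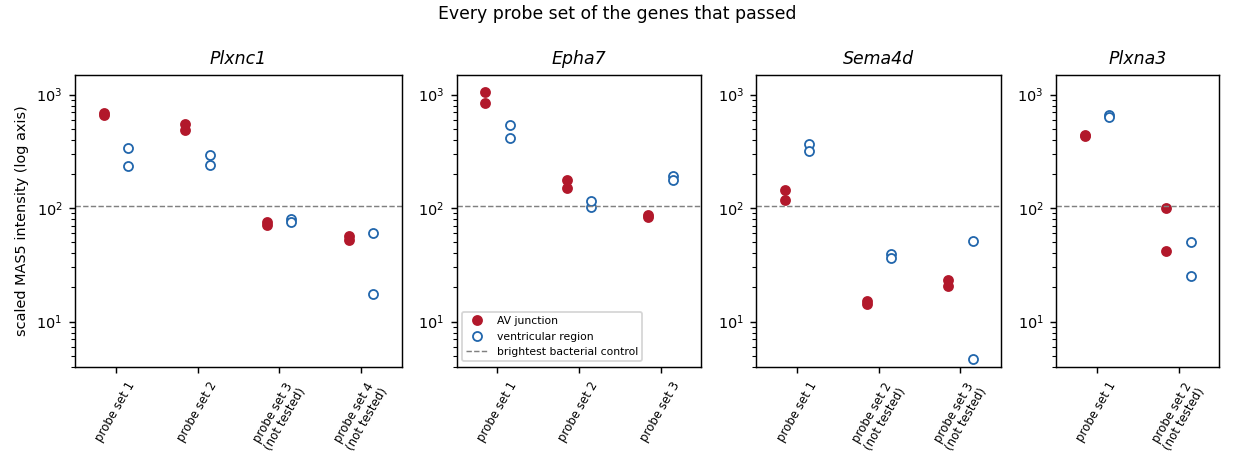
Scaled MAS5 intensity (log axis) of every probe set of the 4 genes that passed, brightest first, with AV junction arrays as filled red points left of the open blue points of the ventricular arrays and the brightest bacterial control dashed. Both bright Plxnc1 probe sets are higher in the AV junction, whereas the third Epha7 probe set is higher in the ventricular region.

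Epha3, whose loss in the mouse leaves the AV cushions poorly fused, was below the floor. It read 138 and 115 on the AV junction arrays, both above the bacterial control, against 54.3 and 4.7 on the ventricular arrays, both below it. In the AV junction it was therefore at least 1.25-fold higher. With no floor its log2 fold was 1.22 and did not pass (adjusted p = 0.137). Its other probe sets were below the control on all arrays. Epha6 read 63 and 114 in the AV junction, against 140 and 124 in the ventricular region (log2 fold −0.42, interval −1.08 to 0.24, adjusted p = 0.346). Epha1 and Epha4, which binds ephrins of both classes, had log2 folds of −0.08 and −0.06, and both turned positive with quantile normalisation or median scaling. Epha2, Epha5 and Epha8 were below the floor.

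Of the B-class receptors only Ephb3 could be tested. It read 514 and 787 in the AV junction and 495 and 851 in the ventricular region, with arrays 1a low and 1b high in both. Its log2 fold was −0.03 (interval −0.66 to 0.60). Ephb4, the venous receptor of ephrin-B2, read 47.6 and 35.5 on the AV arrays, both below the control, against 35.2 and 142 on the ventricular arrays, of which 1 was above it. Ephb6, a receptor without kinase activity, lay below the control on all arrays.

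No ephrin passed, of 5 tested. At an unadjusted p under 0.05 limma gave 0 of 5 higher and 1 lower, against the 15.9% and 17.1% of all genes. That 1 was Efnb3, a transmembrane ephrin known from midline axon guidance, which read 564 and 349 on the AV junction arrays, against 822 and 704 on the ventricular arrays. Its groups did not overlap, and the log2 fold was −0.71 (interval −1.21 to −0.22, adjusted p = 0.0651). With 1 array left out the log2 fold ran from −1.02, where it passed without AV array 1a (adjusted p = 0.0204), to −0.40 without AV array 1b (adjusted p = 0.184), and it did not pass without either ventricular array.

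The other B-class ephrins had positive folds. Efnb1 read 565 and 574 in the AV junction, against 487 and 385 in the ventricular region (log2 fold 0.36, interval −0.00 to 0.72, adjusted p = 0.162), although its other probe sets gave 0.12 and 0.02. Efnb2, the arterial and endocardial ligand needed for trabeculation in the mouse, read 205 and 257 in the AV junction, against 175 and 173 in the ventricular region (log2 fold 0.32, interval −0.14 to 0.78, adjusted p = 0.303), although its second tested probe set gave −0.17.

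Of the A-class ephrins, 2 of 5 could be tested. Efna2 read 130 and 85.1 in the AV junction, against 158 and 217 in the ventricular region, without overlap and without passing (log2 fold −0.60, interval −1.20 to 0.01, adjusted p = 0.164). Efna4 had a log2 fold of −0.26 (interval −0.83 to 0.32). Efna1, a ligand studied in mouse AV valve formation, read 24.1 and 53 in the AV junction and 23.1 and 69.1 in the ventricular region, and it fell under the floor with Efna3 and Efna5.

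Of 12 tested ligands 0 were higher and 1 lower, with a median log2 fold of −0.56, and of 13 tested receptors 2 were higher and 1 lower, with a median of −0.06. Over all genes tested 8.47% were higher and 6.54% lower, so counts this small lie near the background. The ligands include Sema6d and Sema7a and the receptors Plxnd1 and Epha6, whose lower AV mean was fixed by the floor. The difference in medians between ligands and receptors was not tested. The 7 semaphorins stayed negative with quantile normalisation and with median scaling (medians −0.51 and −0.50), whereas the median of plexins and neuropilins was −0.07, against 0.08 and 0.09 in those settings, and that of Eph receptors was −0.06, against 0.04 and 0.10. With no floor, 0 of the 20 dim genes passed (limma adjusted p 0.113 to 0.989), and at an unadjusted p under 0.05 they added Epha3 as higher and Sema3b and Sema4f as lower. Sema3b lay below the bacterial control on all arrays. For known pairs, Plxnc1 was higher in the AV junction while its ligand Sema7a had an interval spanning zero, and Efnb2 and Ephb4 could not be compared because Ephb4 was below the floor.

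Genes that carry the signal inside the cell or share the receptors were read from lists of semaphorin and Eph partners. Of 52 tested, 10 were higher in the AV junction, 0 lower and 42 did not pass, or 19.2% higher against 8.47% of all genes and 0 lower against 6.54%, with a median log2 fold of 0.26. Bright genes were called higher more often throughout the array, at 13.6% and 17.5% in the 2 brightest bins. All the higher partners named below except Fyn had means in those bins, and the comparison was not adjusted for brightness. At an unadjusted p under 0.05 limma gave 23 of 52 higher and 4 lower, against 15.9% and 17.1% of all genes. Of those, Gsk3b and Crmp1 (higher) averaged under 100 on the ventricular arrays, and Src (lower) on the AV arrays. They reached the floor through the other region, so the direction of their means was fixed by inclusion. The count of higher calls was 2 with eBayes without a trend, 4 to 5 with 1 array left out and 21 with median scaling.

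On the semaphorin side, 6 of 27 tested partners rose, or 22.2%. The share of all genes called higher was 8.47%, and it was 13.6% and 17.5% in the 2 brightest bins. Mical1, an oxidase that disassembles actin downstream of plexins, read 1522 and 1501 in the AV junction, against 767 and 882 in the ventricular region (log2 fold 0.84, adjusted p = 0.00539), on a probe set of a class that can match other transcripts. Farp1, an exchange factor related to the one that acts at plexin-A1, rose by 0.83 (adjusted p = 0.0176), the Src-family kinase gene Fyn by 0.71 (adjusted p = 0.0313) and the GTPase gene Rap1b, whose product is switched off by plexins, by 0.67 (adjusted p = 0.0144). Met, a partner of plexin-B receptors, lay below the bacterial control on every array.

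On the Eph side, 4 of 25 tested partners rose, or 16%, against 8.47% of all genes and 13.6% and 17.5% in the 2 brightest bins. Adam10, the protease that sheds ephrins from the cell surface, read 2978 and 2779 in the AV junction, against 1865 and 1702 in the ventricular region (log2 fold 0.68, adjusted p = 0.00741). Rasa1, a Ras inhibitor bound by activated EphB receptors, rose by 0.54 (adjusted p = 0.0239), the scaffold gene Itsn1 by 0.47 (adjusted p = 0.0442, also on a probe set of a class that can match other transcripts) and the adaptor gene Crk by 0.41 (adjusted p = 0.0450).

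Of the region markers, all 5 AV canal genes tested were higher in the AV junction, and 6 of 7 ventricular chamber genes tested were lower. The shares over all genes tested were 8.47% higher and 6.54% lower. Of 8 general heart muscle genes 1 was higher and 2 were lower, and of 9 cushion mesenchyme genes 7 were higher, with a summed intensity of 12322 to 14502 on the AV arrays, against 4138 to 4164 on the ventricular arrays. Among the higher genes, Tbx2, Msx2, Twist1 and Prrx1 averaged under 100 on the ventricular arrays. They reached the floor through the AV arrays, so a higher AV mean was fixed by their inclusion. Other cell types moved with region too. The summed intensity of 8 erythroid genes was 27809 to 29206 on the AV arrays, against 47992 to 49765 on the ventricular arrays, although Hbb-y, an embryonic globin gene, made up most of both sums and 5 of the 7 erythroid genes tested were lower with a list median log2 fold of −1.80. The 6 macrophage genes summed to 3058 to 3114 on the AV arrays, against 1621 to 1764 on the ventricular arrays, most of it from Csf1r. Of them 2 could be tested, and Csf1r, the receptor of a macrophage growth factor, was higher, with 2287 and 2363 on the AV arrays, against 971 and 1137 on the ventricular arrays, while Adgre1 did not pass (log2 fold 0.40). Cx3cr1, Fcgr1, Cd68 and Ptprc were below the floor, and Cx3cr1 read 30.5 and 62 on the AV arrays, against 115 and 117 on the ventricular arrays. Plexin-C1 and Sema4d are both known on blood cells, and the part of either list in their values was not tested. The 9 serum protein genes of liver and yolk sac summed to 7070 to 7440 on the AV arrays, against 530 to 655 on the ventricular arrays. Afp made up most of the AV sums, with 5214 and 4665. Of 5 tested, 4 were higher and Apoa2 did not pass (log2 fold 0.28), and the other 4 were below the floor. Afp, Ttr and Ambp also reached the floor through the AV arrays, so a higher AV mean was fixed by their inclusion. Of 8 tested endocardial and endothelial genes 2 were higher and 1 lower, while Pecam1 and Tie1 lay below the bacterial control on all arrays. Of 8 epicardial genes 0 were higher and 2 lower, and of 4 tested neural and neural crest genes 0 passed. Their log2 folds were 0.02 for Sox10, a neural crest marker, −0.05 for Nefl, −0.36 for Ednrb and −0.86 for Elavl3, with a median of −0.20. Elavl3 reached the floor through its ventricular readings, so a lower AV mean was fixed for it.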

How the data were processed

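Affymetrix MOE430A arrays were analysed, 2 for the AV junction and 2 for the ventricular region. The authors deposited 1 linear intensity per probe set and array, a MAS5 signal according to the submitters' processing notes. A version and detection calls are not given in the sources used here.

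Each array was rescaled to a 2% trimmed mean of 500 over its 22690 probe sets less 64 controls. With 50 added, log2 intensities entered limma 3.58.1 under R 4.3.3 (lmFit, then eBayes with trend) for the 13403 probe sets with a mean of at least 100, with region as the only term, and Benjamini-Hochberg adjustment ran over all of them. Fold changes therefore include the added 50. Exact permutation of 2 against 2 arrays cannot give a two-sided p below 0.333. The small number of arrays limits precision, and the p-values cover only the spread between arrays.

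Symbols came from the platform annotation and were checked by Entrez id against RefSeq (GRCm38.p6), with 0 changes. A fold is "at least" where neither array of the dimmer region exceeded the strongest Bacillus subtilis control, a background chosen after the values were seen. Then the mean log2 intensity of the brighter region was set against that control, or the array's own reading if higher. Where the brighter region was the ventricular one, whose control was stronger, that ratio is no lower bound, so Sema4f is given without "at least".

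Values of all 4 arrays are given for genes that passed and, in each role, for the largest fold that did not. Those of Sema3a, Sema3e, Sema4f, Sema6d, Sema7a, Plxna1, Epha3, Ephb4, Efna1, Efnb1 and Efnb2 were added after their values were seen. Up to 4 partner genes that passed are named per list. Met, Pecam1, Tie1, the single neural genes and the single erythroid, macrophage and serum protein genes were added later. Member genes and lists were chosen with earlier results of these data known. The experiment records list 1 chip lot and a separate fluidics module for each array, so neither could be fitted as a batch, and batches of amplification are not given in the sources used here. Letters a and b did not pair the arrays (r = 0.06 between the regions' a minus b deviations, across probe sets). The fit was tested on simulated data. Figures used matplotlib 3.10.9 in Python 3.11.15.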

Additional observations from a re-analysis of the deposited data

How the results depend on the processing

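With 15 alternatives run, Plxnc1 passed in all and Sema4d in 13 of 14 in which it was bright enough. Members called higher numbered 1 with eBayes without trend and with probe sets averaged within genes, against 2, and 1 to 2 with an array left out. Members called lower numbered 1 with median scaling, no floor, a floor of 300 or no trend and 4 with the mean of probe sets, against 2, and 0 (without ventricular array 1a) to 3 (without AV array 1a) with an array left out. The letter of the array as a replicate block gave 4 lower members and 2 lower partner genes. The members' median log2 fold was −0.0901 with quantile normalisation and −0.0908 with median scaling, −0.13 with a pseudocount of 200, −0.20 with no floor, −0.0291 over the 9 members above a floor of 300, and −0.31 to −0.15 with an array left out. Partner genes called higher numbered 21 with median scaling, 6 with no floor, 2 without trend and 4 to 5 with an array left out, against 10. Lower partner genes numbered 1 with a floor of 300 and 0 to 1 with an array left out, against 0.

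Some folds changed sign, all of them in genes that did not pass. With quantile normalisation and median scaling these were Epha1 (0.0375 and 0.0743), Epha4 (0.12 and 0.10), Nrp2 (0.14 and 0.15) and Plxnb3 (0.00707 and 0.0107). With median scaling they were also Ephb3 (0.13) and Nrp1 (0.0301), and the mean of its probe sets gave 0.0566 for Nrp1. With an array left out the folds ran from −0.22 to 0.10 for Epha4, −0.39 to 0.33 for Ephb3, −0.27 to 0.26 for Nrp2, −0.31 to 0.0123 for Plxnb3, −0.42 to 0.17 for Nrp1 and −1.21 to 0.30 for Sema7a. The cause was not tested. Signal close to the bacterial control limits the 20 members below the floor.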
